A study of Mus musculus with 41 samples.

Results

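The 10 genes described here mark 2 somatic cell types that surround the germ cells of the testis. Pecam1, Cdh5, Kdr, Tek and Egfl7 mark endothelium, and Ptprc, Csf1r, Adgre1, C1qa and Lyz2 mark macrophages. They were chosen by name as markers of these cells, with earlier results of these data known. All 10 of the 10 were found among the 55536 genes of each count table. RNA-seq was made from testis cells of C57BL/6 mice that carried an Oct4-driven eGFP reporter and were sorted for green fluorescence, with 4 wild-type libraries and 4 labelled Rhox10-null, and with the testes of 3 animals pooled in each library. The labels give no age for these animals and say nothing of which part of Rhox10 is absent. iSLAM-seq, which follows RNA output after a factor is switched on, was made from cultured germline stem (GS) cells derived from newborn C57BL/6 testes. Every GS culture carried a short hairpin against endogenous Rhox10 and was sorted for the GFP of that vector. To these cells either a Rhox10-ERT2-mCherry fusion (Rhox10 libraries) or an empty ERT2-mCherry vector (Ctrl libraries) was added, the fusion being switched on by 4-hydroxytamoxifen, and 2 libraries per vector were made at each of 0, 0.5, 1, 2, 4 and 8 h. CUT&Tag, which maps the binding of a tagged protein on DNA, was made in triplicate from GS cells with the same knockdown and an HA-tagged Rhox10, with IgG and empty-vector controls.

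Endothelial cells line the blood vessels that run between the seminiferous tubules. Cdh5 (VE-cadherin) and Pecam1 (CD31) form the contacts between these cells, Kdr (VEGFR2) and Tek (TIE2) are the receptors of VEGF and of the angiopoietins, and Egfl7 is a secreted protein of growing vessels whose gene also hosts the microRNA miR-126. Testicular macrophages lie beside the Leydig cells and on the tubule wall. They depend on the CSF1 receptor Csf1r, whose ligands are CSF1 and IL-34, and they carry the pan-leukocyte phosphatase Ptprc (CD45), the surface receptor Adgre1 (F4/80), the complement protein C1qa and the lysozyme Lyz2. Several of these genes are not limited to the cells they mark: Pecam1 is also carried by early germ cells and pluripotent stem cells, and Lyz2 by neutrophils.

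Promoter sequences of 5 of the 10 members (Tek, Kdr, Egfl7, Ptprc and Lyz2) were matched in the RefSeq table for GRCm38.p6, and Csf1r was not searched. Windows of 4 of these 5 are shown because these genes behaved differently in the comparisons that follow. Each line gives the 250 bases before a transcription start on the gene's strand, 5′ to 3′, in lower case. Capitals mark GGAAGT or its reverse complement ACTTCC, the core read by ETS factors such as ERG in endothelium and PU.1 in macrophages. This motif, searched on both strands, is present in 19.7% of 32851 windows of the same length before RefSeq starts. The coordinates are chr4:94739039-94739288 (plus strand) for Tek, chr5:75978456-75978705 (minus strand) for Kdr, chr2:26580833-26581082 (plus strand) for Egfl7 and chr10:117282273-117282522 (minus strand) for Lyz2.
Tek: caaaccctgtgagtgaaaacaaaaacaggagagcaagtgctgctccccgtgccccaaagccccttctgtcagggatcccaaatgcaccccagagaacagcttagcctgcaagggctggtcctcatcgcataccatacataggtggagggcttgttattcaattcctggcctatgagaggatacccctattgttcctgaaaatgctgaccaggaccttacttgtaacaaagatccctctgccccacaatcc
Kdr: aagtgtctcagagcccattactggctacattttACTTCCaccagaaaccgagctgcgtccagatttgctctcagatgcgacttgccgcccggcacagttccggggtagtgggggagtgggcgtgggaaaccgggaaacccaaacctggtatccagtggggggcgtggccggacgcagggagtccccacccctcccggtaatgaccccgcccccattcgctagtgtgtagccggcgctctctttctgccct
Egfl7: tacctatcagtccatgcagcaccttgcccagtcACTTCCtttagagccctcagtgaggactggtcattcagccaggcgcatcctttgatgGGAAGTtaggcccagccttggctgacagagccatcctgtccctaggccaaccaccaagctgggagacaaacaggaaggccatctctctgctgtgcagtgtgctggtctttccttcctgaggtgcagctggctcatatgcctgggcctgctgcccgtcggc
Lyz2: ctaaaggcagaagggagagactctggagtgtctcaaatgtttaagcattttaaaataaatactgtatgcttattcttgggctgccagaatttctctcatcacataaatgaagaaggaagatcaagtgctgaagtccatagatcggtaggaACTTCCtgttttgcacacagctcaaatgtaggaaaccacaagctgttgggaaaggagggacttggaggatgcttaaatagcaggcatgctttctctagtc
The Tek window held 0 copies of GGAAGT, the Kdr and Lyz2 windows 1 each and the window of the Egfl7 start shown 2. Of the other Egfl7 starts in the table, start 2 had 1 copy and start 3 had 0. Ptprc, whose windows are not shown and overlap, had 2 copies at start 1 and 1 at start 2. The longer GAGGAAGT, which contains GGAAGT, was in 2.44% of all windows and in 0 of the windows of these 5 members. AGATAA, a form of the GATA motif, was in 9.99% of all windows and among these 5 members only in the window of a Ptprc start, number 2 in the table.

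The 8 RNA-seq libraries held 6602089 to 8278887 counts and the 24 iSLAM-seq libraries 9419615 to 12645845. In RNA-seq 8 genes, each above 1% of a library, took most of the counts and left 1379870 to 2128523 for all others. The members rest on 4 to 162 counts per library, which limits the precision. Rhox10 itself was read 3 to 10 times per wild-type library and 4 to 11 times per null one, too few for the low-count filter, so that the genotype labels could not be checked against the targeted gene and all directions follow the labels. In GS cells Rhox10 had 2 to 27 counts in the Ctrl libraries and 353 to 540 in the Rhox10 libraries. The germ cell label was examined with germline genes: per gene length, wild-type libraries had 20.3 ± 1.13 RPKM (reads scaled to exon length and library size; SD, n = 4) of Dazl and 2.04 ± 0.414 (SD, n = 4) of Pou5f1, the gene whose promoter drives the reporter. The same libraries had 83.1 ± 5.23 RPKM (SD, n = 4) of Amh, the anti-Müllerian hormone of Sertoli cells, so transcripts of somatic cells were present in the sort. The 2 Ctrl libraries at 0.5 h differed from each other more than any other replicate pair, with a chi-square of 30.0 per degree of freedom against 5.13 for the next. That next pair was null replicates 1 and 4 of RNA-seq. Null replicate 4 differed from the other null libraries by 4.59 to 5.13, against 1.42 to 1.62 among null replicates 1 to 3.

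All 10 members were detected in all 8 RNA-seq libraries. In the wild-type libraries the level per gene length ran from Lyz2 at 6.04 ± 0.605 RPKM (SD, n = 4) through Cdh5 at 3.02 ± 0.534 (SD, n = 4), C1qa at 2.12 ± 0.461 (SD, n = 4), Pecam1 at 0.906 ± 0.0998 (SD, n = 4) and Egfl7 at 0.845 ± 0.174 (SD, n = 4). Below these came Csf1r at 0.746 ± 0.116 RPKM (SD, n = 4), Kdr at 0.692 ± 0.0850 (SD, n = 4), Tek at 0.524 ± 0.163 (SD, n = 4), Adgre1 at 0.397 ± 0.0941 (SD, n = 4) and Ptprc at 0.0686 ± 0.0246 (SD, n = 4). Among neighbours in this order, Lyz2 was above Cdh5, C1qa above Pecam1 and Adgre1 above Ptprc in all libraries, and every other pair of neighbours overlapped. In the libraries labelled null the first 4 places and the last 2 were held by the same genes, while Egfl7 was in the eighth place at 0.662 ± 0.127 RPKM (SD, n = 4) and Tek in the fifth place at 0.875 ± 0.137 (SD, n = 4). These levels are low beside that of Dazl, and both marker sets were nevertheless read in every library.

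Endothelial markers were compared first. Of the 5 endothelial members, 3 rose in the libraries labelled Rhox10-null (Cdh5, Tek and Pecam1), 0 fell, and Kdr and Egfl7 did not pass the test. The test was edgeR's quasi-likelihood test over 13538 genes with a Benjamini-Hochberg threshold of 0.05, which called 37.5% of all genes in either direction and 18.6% as higher. Levels below are in CPM, counts scaled to library size, here with TMM factors.

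Cdh5 (ENSMUSG00000031871, GRCm38 chromosome 8, 104101625 to 104144511, plus strand) holds endothelial cells together at their junctions. It was at 12.5, 9.82, 15.3 and 13.2 CPM in wild-type replicates 1 to 4 and at 17.7, 20.8, 18.5 and 18.7 CPM in the null libraries. The genotypes did not overlap, and Cdh5 rose 1.49-fold (log2 fold change 0.58, standard error 0.100, edgeR adjusted p = 1.21e-05). Tek (ENSMUSG00000006386, chromosome 4, 94739289 to 94874976, plus strand), the angiopoietin receptor, was at 2.26, 2.30, 3.56 and 1.76 CPM in the wild-type libraries. In the null libraries Tek was at 4.48, 3.84, 4.81 and 3.36 CPM, so that wild-type replicate 3 lay above null replicate 4. The rise of Tek was 1.71-fold (log2 fold change 0.77, standard error 0.218, edgeR adjusted p = 0.00445), the largest among the 10 members.

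Pecam1 (ENSMUSG00000020717, chromosome 11, 106654217 to 106750628, minus strand), an adhesion molecule of endothelium that platelets and leukocytes also carry, was at 5.72, 6.14, 4.75 and 5.97 CPM in the wild-type libraries. The null libraries had 7.65, 6.89, 8.65 and 6.46 CPM of Pecam1, all above the wild-type ones. Pecam1 rose 1.31-fold (log2 fold change 0.39, standard error 0.145, edgeR adjusted p = 0.0292). The call on Pecam1 was lost without null replicate 1, null replicate 3, wild-type replicate 1 or wild-type replicate 3 (adjusted p up to 0.123) and with DESeq2 (adjusted p = 0.136), while those of Cdh5 and Tek held in all 8 fits that left out a library.

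Kdr (ENSMUSG00000062960, chromosome 5, 75932827 to 75978458, minus strand), the main VEGF receptor of endothelium, was at 7.22, 5.68, 5.59 and 6.51 CPM in the wild-type libraries and at 6.99, 6.22, 8.41 and 7.27 CPM in the null ones. These ranges overlapped, and the log2 difference of Kdr of 0.20 (95% interval -0.08 to 0.49) did not pass the test (edgeR adjusted p = 0.265). Egfl7 (ENSMUSG00000026921, chromosome 2, 26580014 to 26593120, plus strand) was at 2.86, 2.76, 2.54 and 3.93 CPM in the wild-type libraries and at 1.75, 2.38, 2.52 and 2.83 CPM in the null ones. It was the single member with a negative estimate, a log2 difference of -0.38 (95% interval -0.85 to 0.08), which did not pass the test (edgeR adjusted p = 0.194). Egfl7 overlaps Gm20532 and Mir126a on its strand and Agpat2 and Mir126b on the opposite strand, and Cdh5 overlaps an antisense gene, Gm29682. The RNA-seq kit marks the strand, but the strand setting of the counting is not given in the sources used here; if it was not used, reads of such pairs cannot be told apart.

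**Figure D1:**
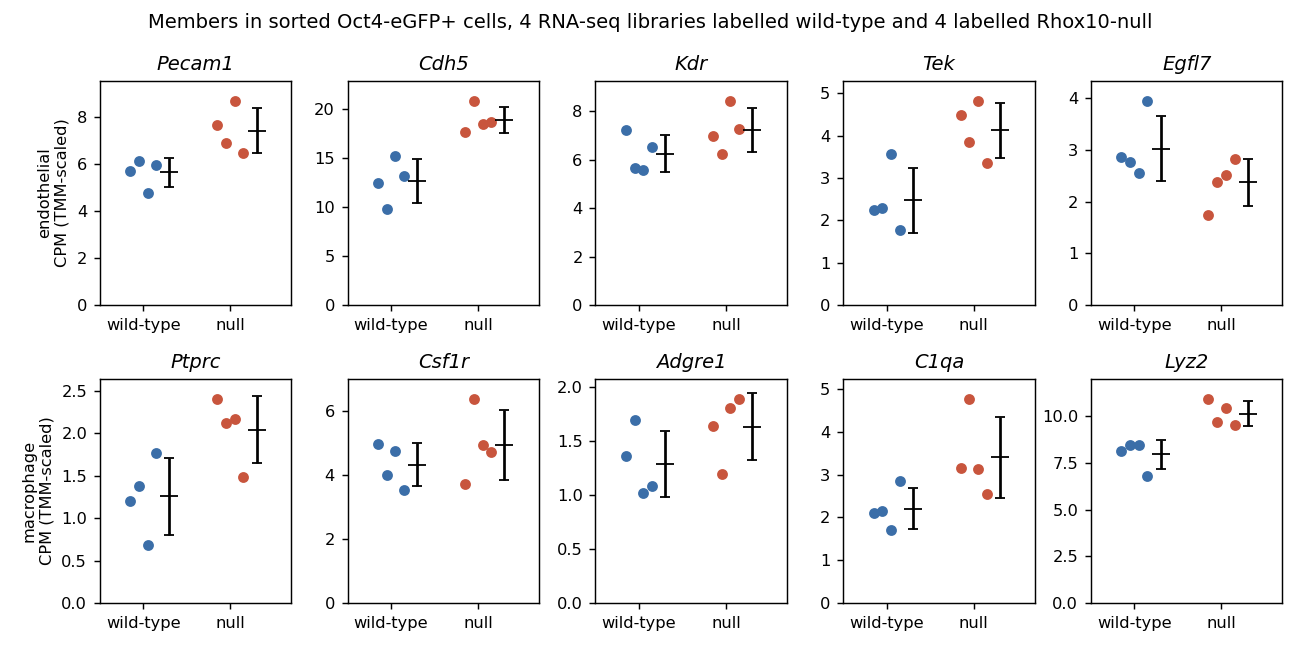
Level of each member in CPM of TMM-scaled libraries (y axis, from 0) in 4 wild-type RNA-seq libraries and 4 labelled Rhox10-null; dots are libraries, and the bar with caps is the mean ± SD. Cdh5, Pecam1 and Lyz2 are the members whose genotypes do not overlap, while Egfl7 is lower on average in the null libraries. The share of all genes without overlap was not counted.

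Macrophage markers were compared in the same fit. Of the 5 macrophage members, 2 rose in the libraries labelled null (Lyz2 and C1qa), 0 fell, and Ptprc, Adgre1 and Csf1r did not pass the test. The share of all genes tested that rose was 18.6%. All 5 estimates were positive, with a median log2 fold change of 0.37, against 0.39 for the endothelial members and 0.0031 for all 13538 genes. Ptprc, at 1.26 CPM in wild-type and 2.04 CPM in null libraries, passed the filter through the null libraries. So did Adgre1, at 1.29 and 1.63 CPM, and the positive signs of both are therefore no test.

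Lyz2 (ENSMUSG00000069516, chromosome 10, 117277331 to 117282321, minus strand), the lysozyme of macrophages and neutrophils, was at 8.12, 8.44, 8.48 and 6.78 CPM in the wild-type libraries. It was at 10.9, 9.67, 10.45 and 9.55 CPM in the null libraries, without overlap. The rise of Lyz2 was 1.29-fold (log2 fold change 0.37, standard error 0.121, edgeR adjusted p = 0.0155). C1qa (ENSMUSG00000036887, chromosome 4, 136895917 to 136898803, minus strand), which starts the classical complement cascade, was at 2.11, 2.15, 1.695 and 2.85 CPM in the wild-type libraries. In the null libraries C1qa was at 3.17, 4.77, 3.12 and 2.56 CPM, with wild-type replicate 4 above null replicate 4. C1qa rose 1.52-fold (log2 fold change 0.60, standard error 0.237, edgeR adjusted p = 0.0422).

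Neither macrophage call was firm. Without null replicate 1 both were lost (adjusted p = 0.0536 for Lyz2 and 0.0524 for C1qa), Lyz2 was also lost without wild-type replicate 4 (0.102), C1qa was also lost without null replicate 2 or wild-type replicate 1, 2 or 3 (up to 0.207), and DESeq2 called neither (0.0984 for Lyz2 and 0.137 for C1qa).

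Ptprc (ENSMUSG00000026395, chromosome 1, 138062861 to 138175708, minus strand), carried by all nucleated blood cells, had 8, 9, 4 and 13 counts in the wild-type libraries and 22, 16, 18 and 11 in the null ones. Its log2 difference was 0.68 (standard error 0.297, edgeR adjusted p = 0.0688), and the fits without null replicate 4 or without wild-type replicate 4 called it (0.0449 and 0.0446). Adgre1 (ENSMUSG00000004730, chromosome 17, 57358691 to 57483527, plus strand), the F4/80 antigen, had 9, 11, 6 and 8 counts in the wild-type libraries and 15, 9, 15 and 14 in the null ones. The ranges of Adgre1 overlapped (log2 difference 0.34, 95% interval -0.27 to 0.95, edgeR adjusted p = 0.402). Csf1r (ENSMUSG00000024621), the growth factor receptor that macrophages need to survive, had 33, 26, 28 and 26 counts in the wild-type libraries and 34, 48, 41 and 35 in the null ones. Scaled to the libraries, Csf1r differed by a log2 value of 0.19 (95% interval -0.18 to 0.55, edgeR adjusted p = 0.441). Csf1r overlaps Hmgxb3 on the opposite strand.

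Of the 10 members together, 5 rose and 0 fell, beside 18.6% of all genes tested that rose. The counts of calls moved with the scaling. TMM scaling gave 2518 genes higher and 2553 lower, library totals without composition factors 7229 and 629 with a median log2 fold change of all genes of 0.35, and scaling to the summed counts of 22 germline genes 12288 and 66 with a median of 0.91. With library totals 4 of 5 endothelial and 4 of 5 macrophage members were called higher. With germline scaling all 5 endothelial and all 5 macrophage members were called higher, and Egfl7 turned to a log2 fold change of 0.52 (edgeR adjusted p = 0.0377), below the median of all genes under that scaling.

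Ratios of counts within a library need no scaling. Egfl7, the single member with a negative estimate, was left out of the endothelial sums in these ratios. With Egfl7 included, the endothelial sum in TMM-scaled CPM was 26.7 to 31.7 for wild-type and 38.55 to 42.9 for null libraries. The 4 endothelial members without Egfl7 had 56.98 to 67.6 counts per 1000 counts of the 22 germline genes with the wild-type label and 156 to 181 with the null label. The 5 macrophage members had 37.4 to 42.0 per 1000 germline counts with the wild-type label and 90.9 to 101 with the null label. Neither pair of ranges overlapped, but the germline genes in the denominator themselves fell, 18 of 20 tested, with a median log2 fold change of -0.87. The ratio of endothelial counts without Egfl7 to macrophage counts does not involve germline genes. It was 1.36 to 1.76 with the wild-type label and 1.57 to 1.80 with the null label, and these ranges overlapped. Egfl7 made up 8.02% to 12.55% of the counts of the 5 endothelial members in wild-type libraries and 4.53% to 7.32% in null ones, without overlap. In such bulk samples, fewer cells of a type and less RNA per cell cannot be told apart.

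**Figure D2:**
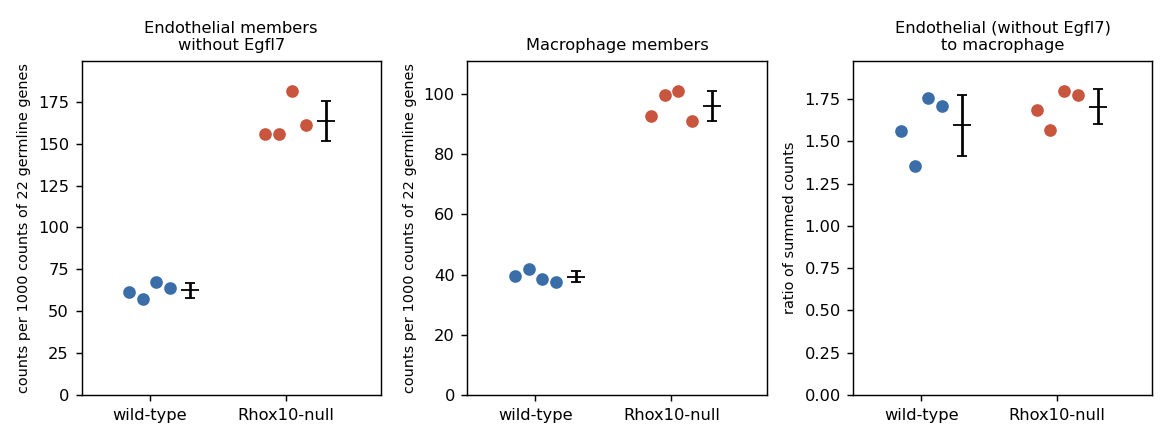
Ratios within each RNA-seq library (y axes, from 0): endothelial members without Egfl7 and macrophage members per 1000 counts of 22 germline genes. The last ratio is that of endothelial counts without Egfl7 to macrophage counts. Dots are 4 libraries per genotype label, and bars are mean ± SD. The ratios to germline counts do not overlap between the labels, while the ratio of the 2 marker sets, 1.36 to 1.76 and 1.57 to 1.80, does.

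Other genes of the same cell types were read from lists of 24 endothelial and 24 macrophage genes. Of the 16 endothelial genes that passed the filter, 4 rose and 2 fell, with a median log2 fold change of 0.23, against 3 and 0 of 5 for the members. The 4 that rose were Cd34, a surface sialomucin also found on stromal progenitors, from 7.58 ± 1.80 to 11.6 ± 1.30 CPM (SD, n = 4 each; log2 fold change 0.61, edgeR adjusted p = 0.000341), Ptprb, the phosphatase that acts on TIE2 (0.65, adjusted p = 0.000809), Tie1, the orphan receptor that pairs with TIE2 (0.94, adjusted p = 0.0186), and the transcription factor Sox7 (1.31, adjusted p = 0.00106). The 2 that fell were transcription factors of endothelium, Erg from 4.41 ± 0.704 to 2.79 ± 0.835 CPM (SD, n = 4 each; -0.66, edgeR adjusted p = 0.0116) and Sox18 from 7.04 ± 0.640 to 5.32 ± 0.469 CPM (SD, n = 4 each; -0.40, adjusted p = 0.0269). Both turned positive under germline scaling (0.24 and 0.50) but stayed below the median of all genes under that scaling, 0.91. Neither was called with library totals (edgeR adjusted p = 0.203 and 0.785). With library totals the list had 10 higher and 0 lower, beside 7229 of all 13538 genes higher. With germline scaling it had 14 and 0, beside 12288 of all 13538 genes higher. The 6 calls of 16 are the same share as the 37.5% called over all genes. Sox7, at 0.842 CPM in wild-type and 2.12 CPM in null libraries, passed the filter through the null libraries, so that only a rise could be called. Tie1, at 1.247 CPM in wild-type and 2.355 CPM in null libraries, also needed the null libraries to pass, so its rise is no test.

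The Erg call was lost without null replicate 3 (adjusted p = 0.0666), and the Sox18 call without null replicate 3 or wild-type replicate 2 (up to 0.0985) and with DESeq2 (0.100). The Tie1 call was lost without null replicate 2 or wild-type replicate 1 or 4 (up to 0.123) and with DESeq2 (0.0722).

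Of the 13 macrophage genes that passed the filter, 7 rose and 0 fell, with a median log2 fold change of 0.55. Over all genes tested, 18.6% rose. The 6 most abundant of these were Laptm5, a lysosomal protein of blood cells (0.57, edgeR adjusted p = 0.00642), Mertk, a receptor for apoptotic cells that Sertoli cells also carry (0.48, adjusted p = 0.00728), Mpeg1, a pore-forming protein of macrophages (0.59, adjusted p = 0.00125), the endosomal glycoprotein Cd68 (0.55, adjusted p = 0.00536), the fractalkine receptor Cx3cr1 (0.51, adjusted p = 0.0498) and the protease Ctss (0.70, adjusted p = 0.0143). DESeq2 called 4 of the list and not Laptm5 (adjusted p = 0.179), Cx3cr1 (0.157) or Ctss (0.0718). The seventh call was Lgals3, from 0.576 ± 0.174 to 1.76 ± 0.398 CPM (SD, n = 4 each; 1.60, edgeR adjusted p = 0.000564). Lgals3 passed the filter through the null libraries, so that only a rise could be called. Leaving out single libraries gave 5 to 8 calls. Laptm5 was lost without null replicate 2 (0.0782) and Ctss without wild-type replicate 3 (0.0695). Cx3cr1 was lost without null replicate 2 or 3 or wild-type replicate 1, 2 or 3 (up to 0.191). The C1q partners of C1qa did not pass the test, C1qb with a log2 difference of 0.19 (edgeR adjusted p = 0.624) and C1qc with 0.50 (0.0878).

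The ligands of the members' receptors were counted as well. Of 9 VEGF, angiopoietin and CSF1R ligand genes 4 passed the filter, 2 rose and 0 fell, with a median log2 fold change of 0.72. Among all genes tested, 18.6% rose. Vegfa, the ligand of Kdr, ran from 4.51 to 5.37 CPM in wild-type and from 9.14 to 10.8 CPM in null libraries. It rose 1.98-fold (log2 fold change 0.98, standard error 0.137, edgeR adjusted p = 1.75e-07), and its estimate lay above those of all 10 members, a difference that was not tested. Vegfd rose by a log2 value of 0.81 (edgeR adjusted p = 0.0485), a call lost in all 8 fits without a library (0.0501 to 0.168). At 0.919 CPM in wild-type and 1.60 CPM in null libraries, Vegfd passed the filter through the null libraries, so that only a rise could be called. Csf1, the ligand of Csf1r, was at 1.73 ± 0.461 and 2.71 ± 0.783 CPM (SD, n = 4 each; edgeR adjusted p = 0.0560).

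**Figure D3:**
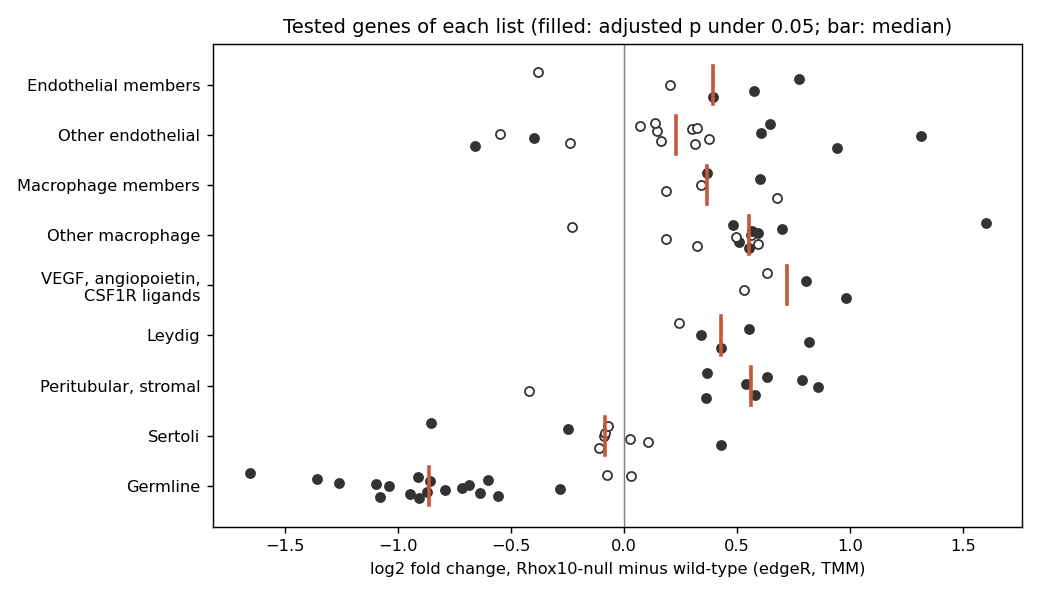
Log2 fold change of the libraries labelled Rhox10-null over wild-type (x axis, edgeR, TMM scaling) for every tested gene of each marker list; filled dots have an adjusted p under 0.05, open dots do not, and the bar is the list's median. The medians of the endothelial and macrophage members, 0.39 and 0.37, lie between those of the Sertoli list, -0.08, and the peritubular and stromal list, 0.56.

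Marker lists of other cells moved with the genotype labels too, and their part in the members' rise was not tested. Of all 13538 genes tested, 2518 rose and 2553 fell. Of 8 peritubular and stromal genes tested, 7 rose and 0 fell (median log2 fold change 0.56), among them the collagens Col1a2, Col1a1 and Col3a1. The summed level of this list ran from 445 to 469 CPM for wild-type and from 704 to 745 CPM for null libraries. Of 5 Leydig genes tested, 4 rose and 0 fell (0.43), with sums of 34.2 to 35.9 and 46.3 to 56.4 CPM, led by Hsd3b1, Cyp11a1 and Star of steroid synthesis. Of 9 Sertoli genes tested 1 rose, Amh, and 2 fell, Aard and Cst9 (median -0.08), with sums of 554 to 591 and 571 to 601 CPM. Of the 20 germline genes tested 18 fell and 0 rose, with sums of 420 to 450 and 222 to 242 CPM, including Dazl, Tex15 and Ddx4.

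Blood cells were examined because endothelium and macrophages lie next to them. The 6 red cell genes that passed the filter had wild-type means of 0 (Slc4a1) to 0.878 CPM (Alas2) and passed it through the null libraries. For such genes a rise was the only call possible, so their 6 calls are no test, and their median log2 fold change was 5.09. The summed level over 9 red cell genes lay between 1.49 and 4.24 CPM in wild-type and between 79.3 and 88.1 CPM in null libraries. Hbb-bs, a beta globin, was read 1 to 2 times per wild-type library and 120 to 135 times per null one. Slc4a1, the red cell anion exchanger, was at 0 in the 4 wild-type libraries and was read 60 to 107 times per null one. Of 18 genes of lymphocytes, granulocytes and mast cells 0 passed the filter, and the sums were 2.04 to 3.07 CPM and 2.88 to 4.24 CPM. Elane, Ly6g, Mcpt4 and Tpsb2, which mark neutrophils and mast cells, were at 0 in all 8 libraries, and S100a8 of neutrophils was read 0 to 5 times per wild-type library and 4 to 8 times per null one. Of 5 megakaryocyte genes Itga2b alone passed the filter and rose (log2 fold change 0.84, edgeR adjusted p = 0.0298), beside 18.6% of all genes. At 1.12 CPM in wild-type and 1.99 CPM in null libraries, Itga2b passed the filter through the null libraries, so its call is no test.

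Cultured GS cells showed another order of the members. In counts of 3′ ends, which do not scale with gene length, Egfl7 was the highest member at 118, 133 and 207 CPM (lowest, median and highest of 24 libraries). Kdr followed at 8.50, 18.1 and 26.3 CPM, Pecam1 at 5.76, 11.7 and 19.97 CPM, Cdh5 at 0.757, 1.61 and 5.14 CPM and Tek at 0.762, 1.32 and 3.09 CPM. Egfl7 was above every other member in all 24 libraries and held 73.2% to 83.7% of the endothelial counts in the Ctrl libraries and 81.8% to 86.8% in the Rhox10 libraries. Kdr and Pecam1 overlapped, as did Cdh5 and Tek.

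Macrophage members were near the limit of detection in GS cells. C1qa had 1 count in the 24 libraries and 0 in 23 of them, where 3 counts would be 0.237 to 0.318 CPM, and Adgre1 had 20 counts in all and 0 in 17 libraries. Ptprc had 84 counts in all and at most 12 in a library, and these 3 genes did not pass the filter. Lyz2 ran from 0 to 33 counts and Csf1r from 1 to 28. Summed over the 5 genes, the level was 0.908 to 3.62 CPM in the Ctrl libraries and 2.23 to 5.51 CPM in the Rhox10 libraries. Macrophage counts per 1000 germline counts were 0.294 to 2.07 over both vectors, and endothelial counts without Egfl7 7.25 to 14.9. Sorted cells and GS cells were prepared with different kits, and their levels are given side by side without a test.

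The vectors were compared after induction as the mean of Rhox10 minus Ctrl over 0.5 to 8 h in a fit of all 24 libraries and 20642 genes. The difference at 0 h was not subtracted, so this contrast does not separate induction from a difference between the vectors present before it. Of the 5 endothelial members 3 were lower with Rhox10 (Kdr, Cdh5 and Pecam1) and 0 higher, beside 18.4% of all genes that were lower. Of the 2 macrophage members tested Lyz2 was higher and Csf1r did not pass the test, beside 18.7% of all genes that were higher. The germline list was lower in the same contrast as well, 16 of 22 genes with 0 higher (median log2 fold change -0.31), with sums of 2701 to 3431 CPM in the 12 Ctrl libraries and 2554 to 2908 CPM in the 12 Rhox10 ones, and its part in the members' differences was not tested. The labels call the libraries biological replicates without naming separate cultures, so the p-values measure the spread between libraries.

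Kdr was the lowered member with the smallest p, with a log2 fold change of -0.84 (standard error 0.107, edgeR adjusted p = 1.14e-06). In the Ctrl libraries, taken in the order of the 6 times, the Kdr level was 19.2 and 26.3 CPM, then 22.8 and 20.8, 17.8 and 25.6, 26.2 and 19.5, 23.4 and 18.5, and 21.3 and 20.9. With Rhox10 the pairs in the same order were 9.998 and 14.2 CPM, 13.2 and 10.2, 12.8 and 14.7, 12.2 and 19.4, 11.7 and 10.8, and 8.50 and 9.58. The highest Rhox10 library, at 2 h, lay above the 3 lowest Ctrl libraries, and no other Rhox10 library reached the Ctrl range. Kdr was already lower before induction, at 0 h (-0.92 on the log2 scale, adjusted p = 0.0144 by edgeR, beside 10.9% of all genes called at 0 h in either direction).

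Cdh5 was at 1.41 to 5.14 CPM (median 2.35) in the 10 induced Ctrl libraries and at 0.757 to 2.39 CPM (median 1.11) in the 10 Rhox10 ones, which overlapped. Its averaged log2 fold change was -0.98 (standard error 0.222, edgeR adjusted p = 0.00105), with negative estimates at all 6 times. Pecam1 was at 10.8 to 19.97 CPM (median 15.2) with Ctrl and 7.05 to 15.4 CPM (median 10.4) with Rhox10. The averaged log2 fold change of Pecam1 was -0.46 (standard error 0.107, edgeR adjusted p = 0.00142), but the estimate at 1 h was positive, 0.27. Before induction, at 0 h, the estimate for Pecam1 was -0.72 (adjusted p = 0.0755 by edgeR) and that for Cdh5 -0.33 (0.750). Pecam1 and Cdh5 were called higher in the sorted cells labelled null and lower in the GS cells with added Rhox10. Tek was called only in the sorted cells and Kdr only in the GS cells. A link between the 2 comparisons was not tested.

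Tek and Egfl7 did not pass the test in the averaged contrast (log2 fold change 0.0063, standard error 0.236, and -0.01, standard error 0.0586; edgeR adjusted p = 0.990 and 0.888). The 2 Rhox10 libraries at 0 h had 3.09 and 3.03 CPM of Tek, above all other 22 libraries, of which the highest had 2.37 (edgeR adjusted p at 0 h = 0.200). Egfl7 was at 207 CPM in Ctrl replicate 2 at 0.5 h, from the pair that stands apart, against at most 156 elsewhere.

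Lyz2 rested on few reads. Its averaged log2 fold change was 1.41 (standard error 0.332, edgeR adjusted p = 0.00154), from estimates of 3.45, -0.49, 0.22, 1.73 and 2.14 in the order of the 5 induced times. The value at 0.5 h came from 0 and 4 counts in the 2 Ctrl libraries that stand apart. Without the second of them the averaged log2 fold change was 2.26, and without all 0.5 h libraries it was 0.91 (adjusted p = 0.0282). Csf1r had an averaged log2 fold change of 0.80 (standard error 0.377, edgeR adjusted p = 0.105) and was called without Ctrl replicate 2 at 0.5 h (0.0493) or without Ctrl replicate 1 at 4 h (0.0247). The 18 genes of other leukocytes moved as well, with sums of 30.1 to 42.3 CPM in the 12 Ctrl libraries and 126 to 174 CPM in the 12 Rhox10 ones, most of it S100a8 (26.1 to 37.7 and 118 to 165 CPM), while the neutrophil genes Ly6g and Elane had 6 and 11 counts in all 24 libraries. The part of such cells in the Lyz2 difference was not tested. The 3 endothelial calls held without the 0.5 h libraries and in all 24 fits that left out 1 library.

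**Figure D4:**
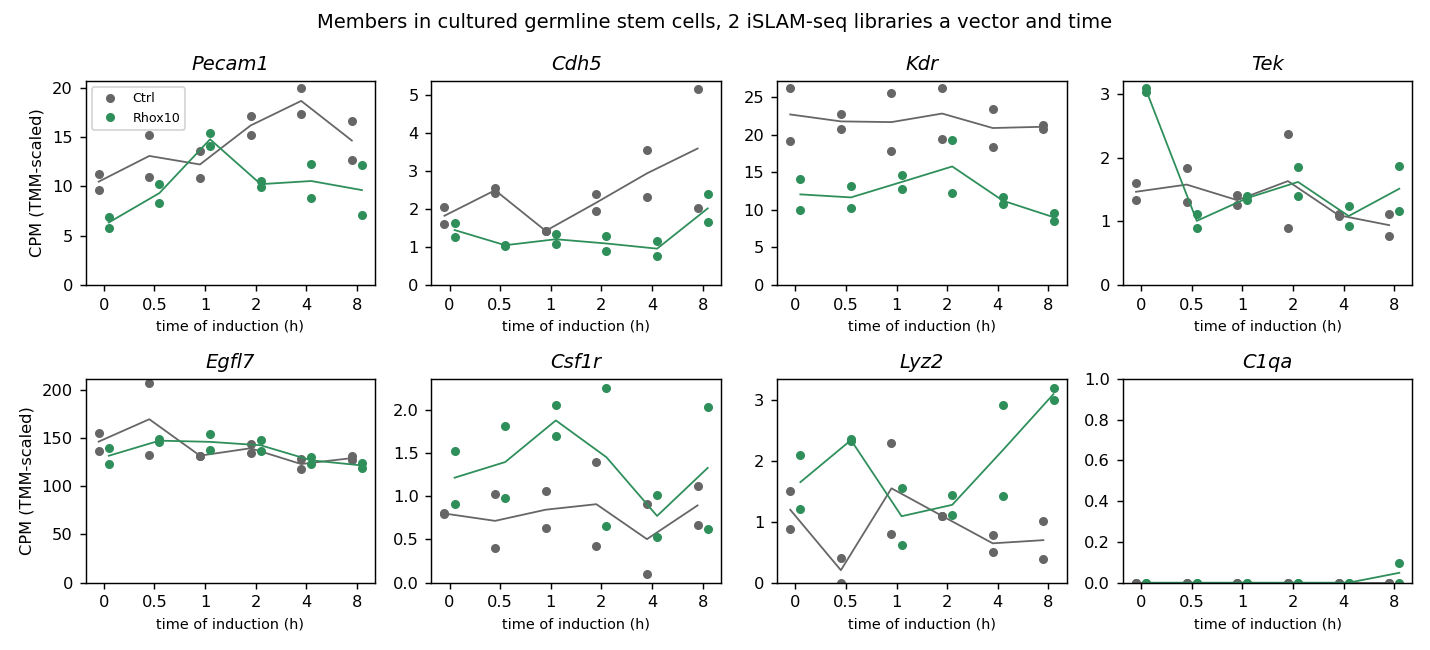
Level of 8 members in CPM of TMM-scaled iSLAM-seq libraries (y axis) against time of induction in h (x axis, evenly spaced categories); dots are single libraries of the Ctrl and Rhox10 vectors, lines join their means. Kdr is lower with Rhox10 from 0 h on, Egfl7 is at over 100 CPM with both vectors, and C1qa is at 0 in 23 of 24 libraries.

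The difference between vectors was also tested for a change from its value at 0 h. The F-test of edgeR called 0 of the 7 members tested, beside 2.39% of all genes. DESeq2 also called 0. Without adjustment for the number of genes, the model fitted across all genes by edgeR gave 2 members a p under 0.05, Pecam1 (0.0417) and Lyz2 (0.0151). Leaving out Ctrl replicate 1 at 0.5 h gave 2 calls and leaving out Ctrl replicate 2 at 0.5 h gave 1.

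Related genes were read in the same contrast of GS cells. Of 18 genes tested from the wider endothelial list 3 were higher and 3 lower (median log2 fold change 0.08), no larger a share than the 18.7% higher and 18.4% lower over all genes. Cd34 was higher (0.86, edgeR adjusted p = 1.22e-12), as were the lipid receptor S1pr1 (0.91, adjusted p = 6.24e-05) and Flt4, the VEGFC receptor (0.76, adjusted p = 0.00560). Rasip1 of vessel lumen formation (-0.53, edgeR adjusted p = 6.59e-07), Ptprb (-0.47, adjusted p = 0.00135) and the decoy VEGF receptor Flt1 (-0.13, adjusted p = 0.0144) were lower. Of 14 wider macrophage genes tested 5 were higher and 4 lower (median 0.21). Those higher were Lgals3, a galectin of many cell types (0.80, edgeR adjusted p = 1.23e-12), Cd14 (0.83, adjusted p = 0.00166), Trem2 (0.87, adjusted p = 0.00668), Pf4 (1.58, adjusted p = 0.0299) and Mertk (0.24, adjusted p = 0.0445). Those lower were Aif1 (-1.15, edgeR adjusted p = 8.57e-05), Cd68 (-0.24, adjusted p = 0.0132), Fcgr3 (-0.51, adjusted p = 0.0266) and Mrc1 (-0.74, adjusted p = 0.0396). Of the 9 ligand genes, all tested, 5 were higher and 0 lower (median 0.59), namely Vegfa (1.24, edgeR adjusted p = 5.12e-13), Il34 (0.90, adjusted p = 4.44e-07), Csf1 (0.71, adjusted p = 2.21e-06), Angpt1 (0.59, adjusted p = 0.000108) and Vegfc (0.76, adjusted p = 0.000127). Vegfa, the Kdr ligand, was higher and Kdr lower in the same libraries.

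CUT&Tag peaks were looked up at the 10 members. The authors' deposited peak table assigned 1 of its 5147 peaks to a member, Pecam1, and 0 to the other 9. That peak covers 498 bases at chromosome 11, 106674422 to 106674919, in an intron (intron 13 of 15 in the authors' annotation) 40611 bases from the start site, and its score of 44.6 ranks 4544 of 5147. It lies in no exon of Pecam1 in GENCODE M21, at -11344 bases from the nearest annotated Pecam1 start there. The Pecam1 peak was thus not within 3 kb of a start. Peaks assigned to neighbouring genes were not measured against the starts of the members.
The central 300 bases, chr11:106674521-106674820 (GRCm38, plus strand), are shown because this is the single peak assigned to a member.
Pecam1 peak: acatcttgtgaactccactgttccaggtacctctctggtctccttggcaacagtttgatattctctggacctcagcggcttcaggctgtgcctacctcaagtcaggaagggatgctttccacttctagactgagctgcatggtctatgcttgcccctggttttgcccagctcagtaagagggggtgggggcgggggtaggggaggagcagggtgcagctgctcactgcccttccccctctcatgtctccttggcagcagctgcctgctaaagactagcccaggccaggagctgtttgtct
These letters are all in lower case because TAAT, the core of many homeodomain sites, occurs 0 times on either strand. TAAT was found in 26.8% of 5143 peak windows of 300 bases and TAATTA, which contains it, in 0.992%. Among related genes, the table placed a peak of score 173 at the Mertk promoter, 223 bases before the start, a peak of score 104 in intron 1 of Flt1, and 1 each at Vegfd, Angpt1, Sox18 and Plvap.

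The genes whose pattern over the 8 RNA-seq libraries was most like the mean of the endothelial members were Ryr1 (Pearson r = 0.990), Pitpnm1 (0.978), Sharpin (0.977), Emilin1 (0.975) and Dnm3 (0.974). For the macrophage members they were Lhx9 (0.995), Tet2 (0.986), Cacng8 (0.985), Igdcc4 (0.983) and Avil (0.982). All 8 libraries share the genotype split, and 35 and 53 genes had r over 0.95, so these are descriptions of these libraries.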

How the data were processed

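RNA-seq and iSLAM-seq values were raw counts per gene, deposited by the authors, and read as whole numbers. The file headers are those of featureCounts, and STAR 2.5.2b, Subread, featureCounts, DESeq2 and GRCm38 are named for RNA-seq in the submitters' processing notes. For iSLAM-seq these notes name limma 3.42.2 and mm10, and neither they nor the header say whether all reads or only converted ones were counted. Peaks carry the authors' score and annotation, per the file headers, from Bowtie2 2.2.5, SAMtools and HOMER on mm10, with peaks of the 3 Rhox10 libraries merged before deposit. Symbols were taken from GENCODE M21 for 55450 of 55536 identifiers. The members and lists were chosen with earlier results of these data known.

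Each count table was fitted as a whole with edgeR 4.0.16 (filterByExpr, TMM factors, quasi-likelihood test, Benjamini-Hochberg threshold 0.05) in R 4.3.3, the 4 null against the 4 wild-type libraries and, for iSLAM-seq, a term for each vector and time. DESeq2 1.42.0, other scalings, no filter, a replicate block and fits without single libraries were alternatives. RPKM is computed from the deposited counts and exon lengths. The fits were tested on simulated data. Genes named outside the members were, by rule, the called genes of each related list with the highest level (RNA-seq, up to 6 a list) or the smallest p (iSLAM-seq, up to 4), and up to 3 abundant genes of each other list; further genes that a small count held, and Flt1, Slc4a1, C1qb, C1qc, Csf1 and the leukocyte genes, were named after their values were seen.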

Additional observations from a re-analysis of the deposited data

Results flagged for a closer look

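For 2 genes of the VEGF system the difference between the Rhox10 and Ctrl vectors changed from its value at 0 h, tested with edgeR's F-test over the 5 later times. Vegfa, the ligand of Kdr, was 1.32 higher on the log2 scale at 0 h and 0.46 higher at 8 h, a change of -0.87 (edgeR adjusted p = 0.00305), and this test passed in every fit that left out 1 library. Flt1, a VEGF receptor that was added after its values were seen, had a difference of -0.12 at 0 h, 0.20 at 0.5 h and -0.63 at 8 h, a change of -0.52 between 0 and 8 h (edgeR adjusted p = 0.00708). The Flt1 test did not pass without Ctrl replicate 1 at 8 h (0.0709) or without Rhox10 replicate 2 at 8 h (0.101). No single library stood apart for a member or a list sum among the 24 groups of 4 values examined, where chance would flag 1.2.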

How the results depend on the processing

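The members of the RNA-seq comparison rest on few counts, and the call on single members moved with the setting while the direction did not, Egfl7 under germline scaling excepted. Calls among endothelial and macrophage members and the wider endothelial and macrophage lists were 3, 2, 6 and 7. DESeq2 gave 0 macrophage members and 4 of the wider macrophage list. Library totals gave 4 macrophage members and 10 and 11 of the wider lists, with 7229 of all 13538 genes higher. Scaling to germline genes gave 5, 5, 14 and 13, with 12288 of all 13538 genes higher. There Egfl7 (log2 fold change 0.518), Sox18 (0.503) and Erg (0.241) turned positive, all below the median of all genes, 0.907. Without the filter 1 macrophage member was called (edgeR adjusted p = 0.0539 for Pecam1 and 0.0665 for C1qa). Where a log2 change of 1 or more was also required, the counts were 0, 0, 1 and 1, and 0 for the endothelial members of iSLAM-seq. Without single libraries the counts ranged over 2 to 3, 0 to 3, 4 to 6 and 5 to 8. In iSLAM-seq they stayed at 3 endothelial members, ranged over 1 to 2 macrophage members and over 0 to 2 for the change from 0 h. The averaged log2 fold change of Egfl7 ranged from -0.0658 to 0.0587 and that of Tek from -0.092 to 0.189 in these fits, and Egfl7 was at 0.0458 without the 0.5 h libraries. Of the peaks annotated to members, 0 lay within 3 kb of a start. The cause of these changes was not tested.

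Replicate numbers did not pair the samples: deviations of same-numbered libraries correlated at -0.019 to 0.014 in RNA-seq and -0.059 to 0.057 in iSLAM-seq. With a replicate block the counts were again 3, 2, 6 and 7, and the single call lost was Vegfd (0.805, edgeR adjusted p = 0.0677). The setting without the 0.5 h libraries and the scaling of levels to germline counts were added after seeing the data.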

Other observations

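S100a8, a calcium-binding protein of neutrophils and monocytes, was among the genes of other leukocytes read in GS cells. It was at 30.9 ± 3.98 CPM (SD, n = 12) in the Ctrl libraries and at 137 ± 14.4 CPM (SD, n = 12) in the Rhox10 libraries, without overlap (2.19 on the log2 scale over the induced times, edgeR adjusted p = 3.91e-18), and the difference was present at 0 h (1.93, adjusted p = 5.72e-10). Its partner S100a9 had 25 counts in the 12 Ctrl libraries and 41 in the 12 Rhox10 ones. Camp, an antimicrobial peptide of granulocytes, was at 1.24 ± 0.667 and 4.13 ± 1.32 CPM (SD, n = 12 each; 1.95 on the log2 scale, edgeR adjusted p = 1.57e-06). These genes were chosen after their values were seen.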
